A study of Homo sapiens with 4 samples.

Results

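The forkhead and SOX transcription factor genes described here are those to which the deposited peak annotation assigned at least 1 summit of TBX3-3xHA, leaving out SOX4, SOX5, SOX9 and SOX10. They were chosen by gene name, as FOX followed by a letter from A to S and a number, or SOX followed by a number. Earlier results of these data were known when the names were chosen. Of 12468 genes named in either list, 22 matched, 17 forkhead (FOX) genes and 5 SOX genes. The gene table of RefSeq holds 45 FOX and 15 SOX genes under the same rule, so 28 FOX and 10 SOX genes had no summit assigned to them. Binding was measured by chromatin immunoprecipitation and sequencing (ChIP-seq) in 501mel, an established human melanoma cell line grown in RPMI-1640 with fetal bovine serum. TBX3, a T-box transcription factor, carried an HA peptide tag and was precipitated with an anti-HA antibody in 2 ChIP samples. The other 2 samples were input chromatin from the same line, not analysed here. How the tagged protein was expressed is not given in the sources used here, and nothing in the labels says whether the 2 ChIP samples came from separate cultures.

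Forkhead proteins share a winged-helix DNA-binding domain, and their members range from the insulin-regulated FOXO factors to the FOXP factors of brain and lymphocyte development. SOX proteins bind and bend DNA through an HMG box related to that of SRY. In the melanocyte lineage SOX10 activates MITF, FOXD3 acts in the neural crest before melanocytes form, and SOX5 and SOX6 are SOXD proteins that have no activation domain of their own. T-box proteins bind a core that reads GGTGT within a longer site.

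A position found in both replicates is called a shared region. It is a pair of summits, each the nearest to the other in the other list and at most 200 bp apart. The lists held 32479 summits in replicate 1 and 40494 in replicate 2 and gave 22702 shared regions, of which 57 were nearest to a start site of these genes. Each of the 57 had the same nearest gene in both lists. Peak scores are the authors' own, on a scale not stated, so they rank sites only within a list, rank 1 being the highest score and tied scores taking their mean rank. The depth of the libraries is unknown, and a list of summits holds no marker by which the labelled cell type could be checked.

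SOX6 had the highest-ranked shared region of all 22 genes and, by the replicate 1 distance, the only shared region within 1 kb of a deposited transcription start site (TSS). A region at FOXP1 was 1054 bp away by its replicate 1 summit and 885 bp by its replicate 2 summit. SOX6 has several start sites, and both SOX6 regions described here lay just upstream of a RefSeq start. The promoter table of RefSeq (GRCh38.p14) gives their sequence, and the 250 bases before each start are shown because the summits fell inside or beside them, minus strand, 5′ to 3′. Capitals mark the only copy of the T-box core GGTGT, searched on both strands (its reverse complement is ACACC).
SOX6, start site at 16402863, chr11:16402864-16403113: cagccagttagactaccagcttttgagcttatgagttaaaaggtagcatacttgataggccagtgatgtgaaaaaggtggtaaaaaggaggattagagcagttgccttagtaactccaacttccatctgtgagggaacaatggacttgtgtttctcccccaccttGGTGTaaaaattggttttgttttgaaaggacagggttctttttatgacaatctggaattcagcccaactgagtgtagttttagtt
SOX6, start site at 16356546, chr11:16356547-16356796: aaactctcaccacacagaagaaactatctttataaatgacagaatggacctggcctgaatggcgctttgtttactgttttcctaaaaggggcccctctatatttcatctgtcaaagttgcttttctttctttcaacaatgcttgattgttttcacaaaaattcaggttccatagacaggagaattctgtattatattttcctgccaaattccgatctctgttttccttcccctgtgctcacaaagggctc
At the first of these starts the summits lay 157 bp upstream in replicate 1 and 207 bp upstream in replicate 2, inside the sequence printed. The core begins 85 bases before the start, 72 bp from the replicate 1 summit and 122 bp from that of replicate 2. Of 35116 promoter windows of this length in the table, 32.2% hold GGTGT on either strand, so such a match is common. The longer GGTGTGA, which contains that core, was in neither SOX6 window and is in 2.76% of all windows. At the other start the summits lay 288 bp and 280 bp upstream, which is 38 bp and 30 bp beyond the end of the printed sequence.

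The 2 SOX6 regions differed in rank. At the promoter region the summits at 16403020 and 16403070 had scores of 70.2 in replicate 1 and 147.3 in replicate 2, with ranks of 3265.5 and 2041.5. The region at the other start had summits at 16356834 and 16356826, and its scores were 414.8 and 604.7, with ranks of 90.5 and 59. The deposited annotation places this second region in intron 1 of 15, 46033 bp from the nearest TSS it holds. By the RefSeq starts it is 288 bp from a start, so the distance depends on the set of start sites used.

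**Figure D1:**
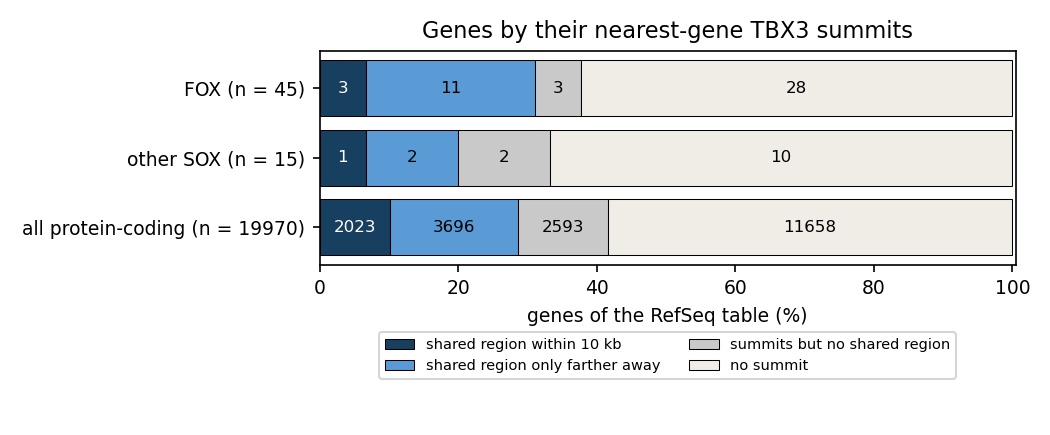
Share of the 45 FOX genes, the 15 other SOX genes and all 19970 protein-coding genes of the RefSeq table (x axis, percent of genes) whose deposited nearest-gene summits include shared regions up to 10 kb from the start, only shared regions farther away, only unpaired summits, or none. Numbers in the bars are genes. A shared region within 10 kb was found at 6.67% of FOX, 6.67% of SOX and 10.1% of all genes, and only farther ones at 24.4%, 13.3% and 18.5%.

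Shared regions within 10 kb of a deposited TSS were found at 4 genes, FOXO1, FOXP1, FOXP2 and SOX6. That is 3 of 45 FOX genes (6.67%, 95% Wilson interval 2.29% to 17.9%) and 1 of 15 SOX genes (6.67%, 1.19% to 29.8%). Of all 19970 protein-coding genes 10.1% did. Counted over the genes named in either list, the 4 of 22 were 18.2%, beside 24.1% of all 12468 named genes. At any distance 14 FOX and 3 SOX genes had a shared region, 28.3% of the 60 genes together against 28.6% of all protein-coding genes. Among named genes this was 77.3% of the 22 against 69.5% of all. These shares were not tested against the background, because genes are not replicates. The counts are small and the intervals wide.

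Regions were unevenly spread over the 17 genes. FOXP1 had 16, FOXC1 had 10 and SOX6 had 6, together 56.1% of the 57. Another 4 were at FOXN3 and 3 at FOXP2. FOXK1, FOXN2, FOXO1, FOXO3, FOXO6 and FOXQ1 had 2 each, and FOXB1, FOXB2, FOXD1, FOXI3, SOX2 and SOX13 had 1. The median was 2 regions per gene, against 1 over the 8660 genes that had any. At least 16 regions were found at 56 genes of the genome, at least 10 at 156 and at least 6 at 548. The length of genome to which each start site is the nearest was not measured, and whether these counts follow it was not tested. Regions of a gene also share a locus, so they are not independent.

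FOXP1, a repressor that acts in brain, heart and lymphocyte development, had the most regions near start sites. Of its 16 regions on chromosome 3, 4 lay within 10 kb of a TSS, at 3 different start sites. The closest had summits at 71129887 and 71130056, 1054 bp from a start, with low scores of 4.50 in replicate 1 and 9.09 in replicate 2. Another, at 71305867 and 71305868, lay 1107 bp upstream of a start at the annotated termination site of the antisense transcript FOXP1-AS1, with scores of 15.8 and 15.6. The 2 others, 3699 bp upstream at 71308459 and 7301 bp downstream at 71237864, scored 14.1 and 24.98, and 7.82 and 7.62. None of these was among the strongest sites of the gene. The highest-ranked had its summit at 71050844 in both lists, in an intron 14079 bp from the nearest start, with scores of 273.6 and 460.1 and ranks of 291.5 and 192. A second strong region, at 70933662 and 70933632, was intergenic, 131261 bp downstream, and scored 84.3 and 194.9. The 10 kb limit separated the FOXP1 regions at 7301 bp and 14079 bp, the members nearest to it on either side.

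FOXP2, known for its part in speech and language development, had a shared region 2300 bp upstream of a start on chromosome 7, with summits at 114412697 and 114412700 and scores of 14.1 and 23.02. Nearer to a start each list had a summit of its own. In replicate 1 it was at 114414918, 79 bp upstream of the deposited start but downstream of a RefSeq start at 114414815, with a score of 27.0. In replicate 2 it was at 114415692, 695 bp downstream of a start, with a score of 64.5. The 2 positions lay 774 bp apart and so made no shared region, although these were the highest-scoring unpaired summits of the 22 genes in their lists. The strongest FOXP2 region was far inside the gene, at 114502535 and 114502550, in intron 1 of 8 of an isoform and 76033 bp from a start. Its scores were 232.5 and 338.9 and its ranks 421.5 and 419.5.

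**Figure D2:**
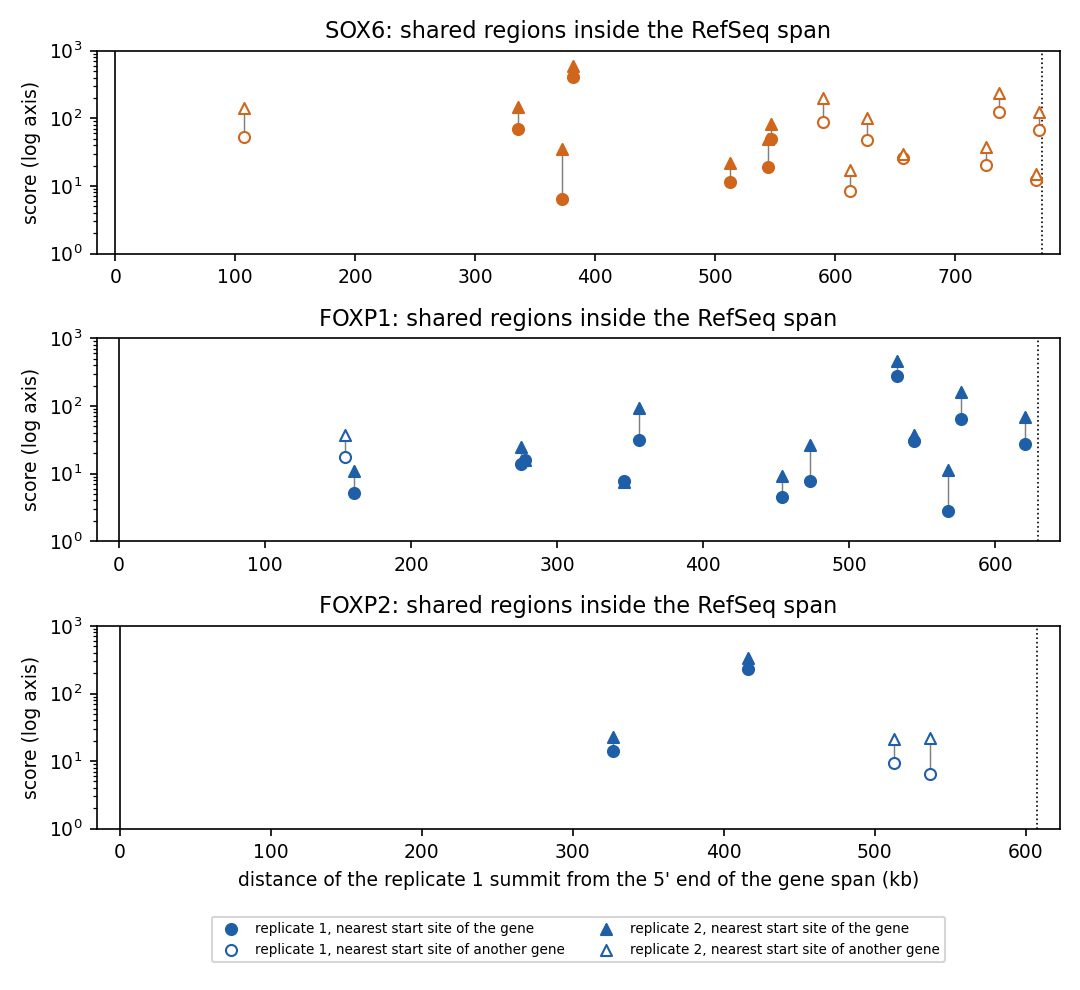
Shared regions inside the RefSeq spans of SOX6, FOXP1 and FOXP2, by distance of the replicate 1 summit from the 5′ end of the span (x axis, kb) and deposited score (y axis, log). Circles are replicate 1, triangles replicate 2, joined by a line, filled where the nearest deposited start belongs to the gene and open where it belongs to another. A solid line marks the 5′ end and a dotted line the 3′ end. Of the 15 regions in SOX6, 9 are open.

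The FOXO factors, most of which leave the nucleus when insulin and AKT signalling is active, had regions at 3 of their 4 genes by nearest gene. At FOXO1 on chromosome 13 summits at 40664913 and 40664906 lay in intron 1 of 2 and in a CpG island, 1684 bp from the start, with scores of 71.5 and 57.1. A stronger FOXO1 region was 50808 bp from the start in the same intron, at 40615789 and 40615760, within an L2a element, with scores of 109.9 and 128.2. FOXO6 had no region nearer than 17885 bp, but that one, intergenic on chromosome 1 at 41344046 and 41344047, scored 131.7 and 271.5 (ranks 1269 and 719). FOXO3 had regions 31907 bp and 72806 bp downstream of the deposited start. They were at 108592773 and 108633672 on chromosome 6, both in intron 1 of 2, and scored 19.3 and 13.9, and 32.0 and 81.1. The summits of the first lay only 4000 bp in replicate 1 and 3980 bp in replicate 2 from a RefSeq start of FOXO3. FOXO4 had no summit assigned to it. Its RefSeq span on the X chromosome ends 132 bp before a shared region at 71103664 and 71103661 that was assigned to CXorf65, with scores of 104.9 and 237.7.

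Of 30 other genes of FOXO signalling, 14 were upstream regulators and 16 known targets. A shared region at any distance was found at 15 of the 30, a larger share than the 28.6% of protein-coding genes. Only 22 of the 30 were named in either list, however. Counted over named genes it was 15 of 22, close to the 69.5% of all 12468 named genes. Neither comparison was tested. Within 10 kb 2 of the 30 had a shared region (6.67%, 1.85% to 21.3%), against 10.1% of protein-coding genes. Both lay at promoters. At SGK1, a kinase that phosphorylates FOXO proteins, summits at 134178447 and 134178491 on chromosome 6 lay 575 bp upstream of a start and scored 33.5 and 11.7. At IRS2, an adaptor of the insulin receptor and a FOXO target, summits at 109786919 and 109786921 on chromosome 13 lay 352 bp upstream and scored 122.2 and 116.7. Among the 28 genes without a region that near, TRIB1 had 11 shared regions farther away, PIK3R1 7, PDK4 6 and BCL2L11 1. AKT1 and CDKN1B had no summit assigned to them.

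FOXC1, a factor of the neural crest and the anterior eye, differed from FOXP1 in where its regions lay. All 10 were between 102127 bp and 275250 bp downstream of its start on chromosome 6, and all 10 fell in introns of the neighbouring gene GMDS, an enzyme of GDP-fucose synthesis. FOXC1 was therefore their nearest start only by distance. The 3 strongest had summits at 1761581 and 1761592 (scores 301.5 and 495.1), at 1712573 and 1712566 (278.7 and 492.9), and at 1746061 and 1746038 (214.9 and 276.0). Their ranks ran from 230 to 480 in replicate 1 and from 151 to 688 in replicate 2. The other 7 scored between 5.57 and 62.8 in replicate 1. A shared region at 1601419 and 1601375 lay 8496 bp and 8540 bp upstream of the RefSeq start of FOXC1. It was assigned to FOXCUT, a non-coding neighbour, and scored 32.0 and 125.2. FOXQ1, a further forkhead gene on chromosome 6, had regions 23304 bp downstream (59.2 and 72.1) and 89424 bp upstream (18.1 and 21.2) of its start.

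**Figure D3:**
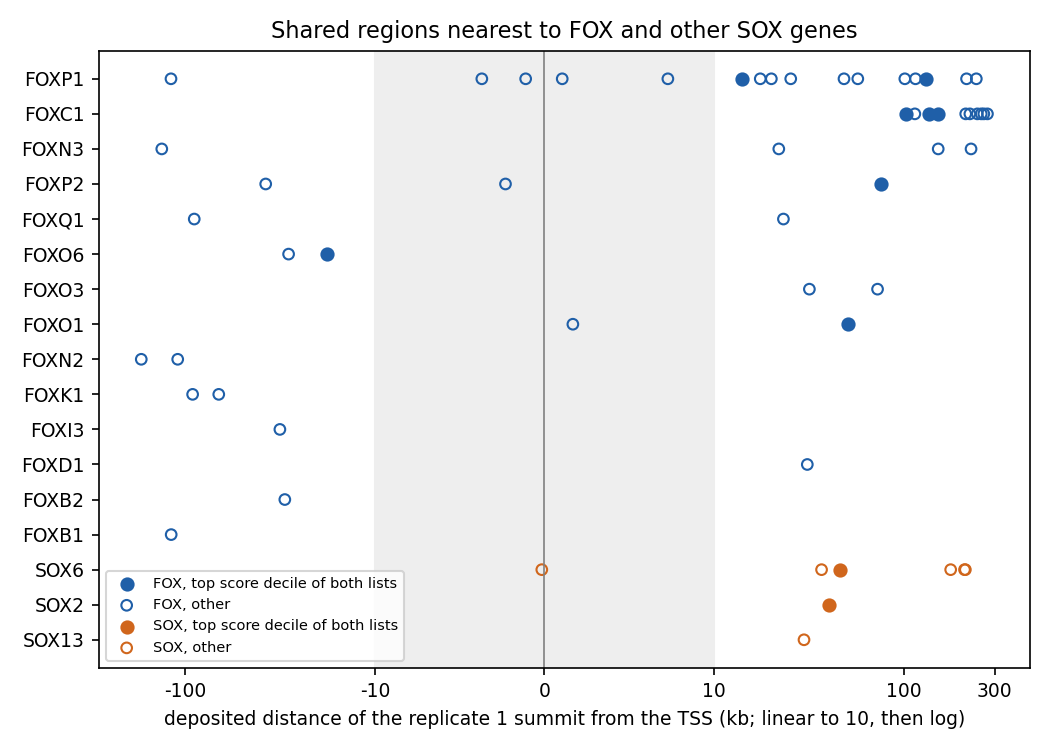
Deposited distance of the replicate 1 summit from the nearest start (x axis, kb, linear to 10 and log beyond, negative is upstream) of each of the 57 shared regions, by gene. Blue is FOX and orange is SOX, filled where the score was in the top decile of both lists, and grey shading marks 10 kb. Of the 10 filled points none is inside the shaded band, although the filled SOX6 point is 288 bp from a RefSeq start.

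SOX2, a factor of pluripotent and neural stem cells, had a single shared region, and it was among the strongest. Its summits on chromosome 3 at 181752377 and 181752373 were intergenic, 40453 bp downstream of the start, with scores of 277.0 and 445.3 and ranks of 282 and 222.5. SOX13, a SOXD factor like SOX6, had a region in intron 1 of 13, 29894 bp from its start on chromosome 1, at 204103012 and 204102967. Its scores were 10.0 and 33.1, low in replicate 1. SOX7 and SOX11 each had a summit in replicate 2 alone, 45196 bp upstream and 55873 bp downstream of their starts, with scores of 7.62 and 4.28. In the SOX genes left out, the deposited annotation gave SOX10 1 shared region, 1328 bp from its start, and SOX5 11, the nearest 43176 bp away. SOX4 and SOX9 had no summit assigned to them.

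The remaining forkhead genes had distal regions only. FOXN3, a cell cycle checkpoint gene, had 3 in its own introns on chromosome 14, the strongest at 89395074 and 89395091 with scores of 60.3 and 139.8, and 1 upstream of the gene. Both FOXN2 regions were intergenic on chromosome 2, 109227 bp and 169777 bp upstream, and scored 70.2 and 91.8, and 54.3 and 81.1. The pair at FOXK1 on chromosome 7 lay in LTR elements, LTR5_Hs at 91195 bp and MLT1C at 66466 bp upstream. They scored 10.0 and 27.99, and 18.0 and 15.9. At FOXB1 the region was 118203 bp upstream (40.6 and 68.3). At FOXB2 it was 29879 bp upstream (6.43 and 33.2), at FOXI3 31716 bp upstream (4.50 and 3.11) and at FOXD1 31114 bp downstream (5.12 and 13.9). Of these 4 genes only FOXB1 had a score above 40 in either list.

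FOXD1 lay at the limit of pairing, with its summits 200 bp apart. Just beyond it were summits 211 bp apart at FOXO6 and 239 bp apart at FOXC1, both at genes with other regions. Unpaired summits were the whole record of FOXJ2 (1 in replicate 1, 5693 bp upstream of the start, score 17.2), FOXE3 (2 in replicate 2, the nearer at 8730 bp, score 2.56) and FOXL1 (2 in replicate 2, scores 8.27 and 4.28). FOXI3 also had an unpaired replicate 1 summit 6333 bp upstream, with a score of 3.34.

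The share of member summits with a partner was close to that of all summits. In replicate 1, 57 of 80 summits had a partner (71.2%, interval 60.5% to 80.0%), against 69.9% of all. In replicate 2 it was 57 of 94 (60.6%, 50.5% to 69.9%), against 56.1%. Summits of the same gene share a locus and are not independent, which these intervals do not allow for. Summits with a partner had a median score of 21.2 in replicate 1 and 50.0 in replicate 2, and those without one 5.12 and 6.91. Paired summits lay a median of 31 bp apart, close to the 28 bp of all shared regions.

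**Figure D4:**
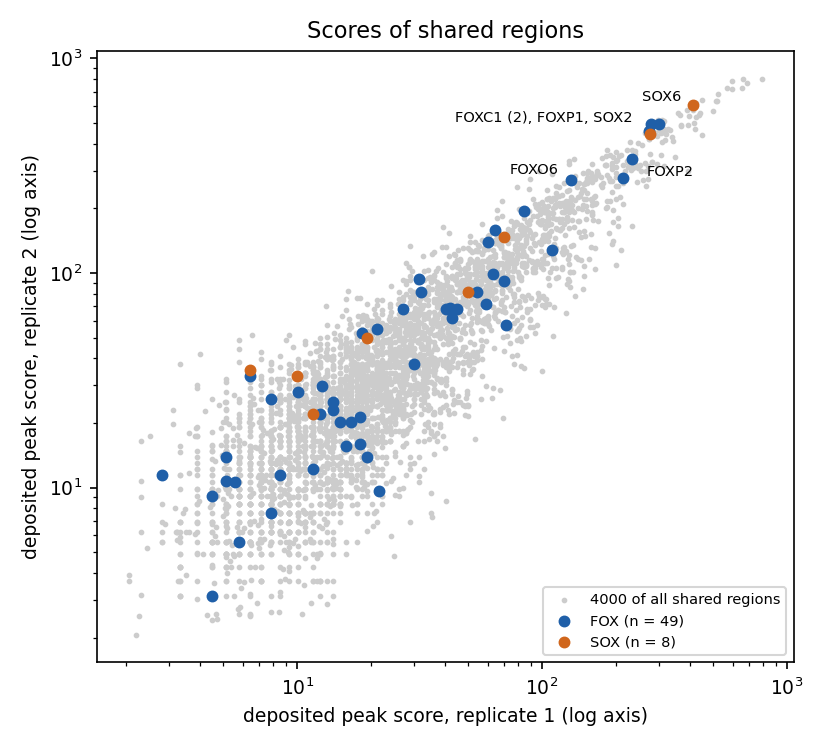
Deposited peak score in replicate 1 (x axis, log) and replicate 2 (y axis, log) of the 49 FOX regions in blue and the 8 SOX regions in orange, over 4000 shared regions drawn at random in grey. The members lie along the grey cloud from 2.804 and 11.4 at the weakest FOXP1 region in replicate 1 to 414.8 and 604.7 at SOX6.

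Of the 57 regions, 10 were in the top score decile of both lists (17.5%, 9.82% to 29.4%). This was 12.4% for all shared regions and 13.6% for those outside satellite DNA, where no member lay. The 10 belonged to 7 genes, 3 of them at FOXC1, 2 at FOXP1 and 1 each at FOXO1, FOXO6, FOXP2, SOX2 and SOX6. Regions of the same gene are not independent, which the interval does not allow for. All 10 were over 10 kb from a deposited start, as were 77.9% of all shared regions in that decile of both lists. By RefSeq starts, however, the SOX6 region among the 10 was 288 bp from a start. The SOX6 promoter region was just under the limit, at percentile 89.9 in replicate 1 and 94.96 in replicate 2. The median percentile of the score of the 57 was 66.1 in replicate 1 and 81.7 in replicate 2. For all shared regions it was 63.6 and 70.5, and outside satellites 63.6 and 72.2.

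Introns held 63.2% of the member regions (36 of 57, 50.2% to 74.5%) and intergenic sequence 33.3% (22.5% to 46.3%). For all shared regions these were 39.7% and 53.2%. Repeats held 15.8% (8.54% to 27.4%) against 41.7%, and no member lay in satellite DNA, which held 16.6% of all. Outside satellites the shares of all regions were 47.6% intronic, 44.4% intergenic and 30.1% in repeats, so part of each gap went with the satellites. The 57 regions come from 17 loci and are not independent, and these differences were not tested. Of the 36 intronic regions 26 lay in the nearest gene itself and the 10 at FOXC1 in another gene. The median distance from a start was 72806 bp, against 51090.5 bp for all and 37087.5 bp outside satellites.

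Whether a gene held regions inside its span went with its length. The median span of the 60 genes in RefSeq was 4.91 kb, against 24.2 kb for all protein-coding genes. Of the 7 that span 100 kb or more, 6 held a shared region, all but FOXJ3. Of the 53 shorter genes only SOX13 did. Among all protein-coding genes 63.9% of those spanning 100 kb or more and 12.2% of the shorter held one.

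Counts by span and by nearest start differed at several genes. FOXC1 had 10 regions by nearest start and 0 inside its span. The SOX6 span of 772 kb held 15 shared regions, of which 6 were assigned to SOX6, 8 to MIR6073, a microRNA gene at the 3′ end of SOX6, and 1 to C11orf58. Those assigned to MIR6073 included a strong site in an intron at 16002145 and 16002144 (122.5 and 238.4). Another, at 15968706 and 15968693 (67.7 and 123.0), was 915 bp from the start of MIR6073. FOXP1 held 13 regions within 629 kb, of which 12 were its own by nearest start. FOXO3 held 5, of which 3 were assigned to LINC00222, and FOXP2 held 4, of which 2 were assigned to MIR3666. FOXN3 held 4, with 1 assigned to FOXN3-AS2, and SOX13 held 2, with 1 assigned to ERLNC1. Over the 7 genes 45 regions lay inside spans and 28 of these carried the gene's own name. By span 7 of the 60 genes had a region (5 FOX and 2 SOX), against 20.9% of all protein-coding genes.

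Per 100 kb of span, FOXO3 held 4.0 shared regions, FOXP1 2.07, SOX6 1.94, FOXO1 1.80, FOXN3 0.864 and FOXP2 0.659. The median of the 3351 protein-coding genes spanning 100 kb or more was 0.545, the upper quartile 1.19 and the 90th percentile 2.20. Of those genes 2.09% were at least as dense as FOXO3, 11.1% as FOXP1, 12.4% as SOX6, 14.9% as FOXO1, 34.6% as FOXN3 and 45.0% as FOXP2. FOXJ3 was at 0, as were 36.1% of all.

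**Figure D5:**
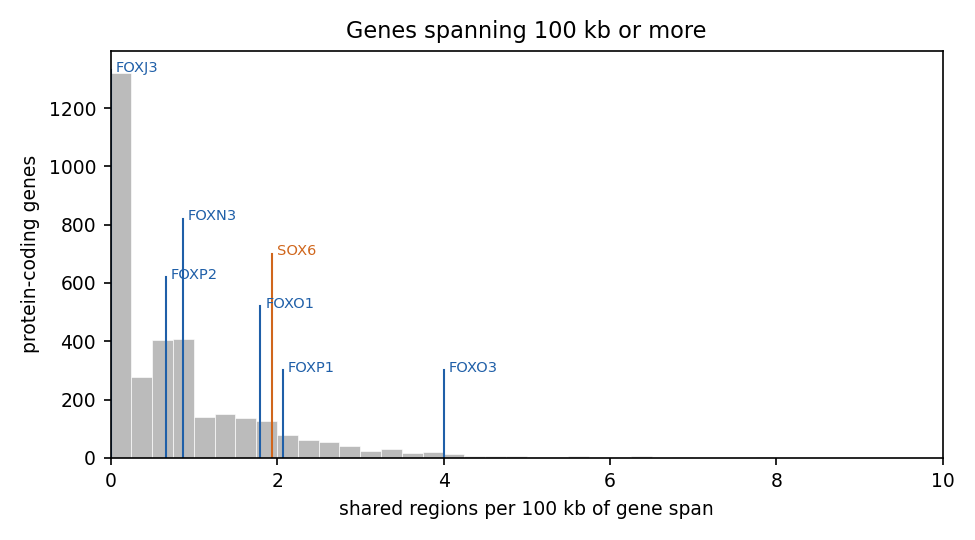
Histogram of shared regions per 100 kb of gene span (x axis) over the 3351 protein-coding genes that span 100 kb or more (y axis, number of genes, 1 gene lies beyond 10). Vertical lines mark the FOX genes in blue and SOX6 in orange, from FOXJ3 at 0 to FOXO3 at 4.0, and the height of a line has no meaning.

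The 38 genes without a summit assigned to them were also looked up by position. They included all 3 FOXA genes, the SOXB1 genes SOX1 and SOX3, and FOXM1, a driver of mitotic gene expression. A shared region assigned to IRF2BP1 lay 5500 bp outside FOXA3, at 45879297 and 45879313 on chromosome 19. It scored 33.0 and 106.5 and was 14971 bp from the RefSeq start of FOXA3 in replicate 1. At FOXD3 the nearest shared region was 45801 bp outside the gene, at 63276766 and 63276827 on chromosome 1, with scores of 16.6 and 17.4, and it was assigned to LINC00466. A shared region lay less than 100 kb outside the span of 20 of the 38, against 56.9% of all protein-coding genes without a summit. Among the 42 genes with a RefSeq promoter window, 7 had 1 or more shared regions up to 10 kb from a RefSeq start (FOXC1, FOXO1, FOXO3, FOXO4, FOXP1, FOXP2 and SOX6), against 12.8% of 15811 protein-coding genes in that table. Within 1 kb it was SOX6 alone, against 3.46%.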

How the data were processed

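The authors annotated the peak summits of each sample separately with HOMER's annotatePeaks.pl against hg38, per the file headers. The submitters' processing notes name FastQC 0.11.7, cutadapt 2.8, Bowtie2 2.3.5, MACS2 2.1.2 and SAMtools 1.9, with no settings. Scores are the values the authors deposited for each peak, on a scale not stated. Annotation classes, repeats, nearest gene and signed distance to the TSS are as deposited.

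Summits were paired when mutually nearest and within 200 bp. A check on simulated summits set partners closer together than that limit, so it cannot show how well real pairs were found. Nearest gene and distance of a shared region were those of replicate 1. RefSeq gene spans and promoter windows (GRCh38.p14) gave the counts by position, where a promoter entry was found for 42 of 60 genes. Shares have 95% Wilson intervals, which cover counting error only. With 1 ChIP condition and no input values, conditions could not be compared. Gene names, the FOXO list and the alternatives were chosen with earlier results of these data known. Named by rule were genes with a shared region within 10 kb and the leading genes of each family by number and rank of regions, ties included. All others, among them FOXB1, FOXB2, FOXD1 and FOXI3, were named after their values were seen. A gene of the FOXO list is not reported here and was left out of its counts. Python 3.11.15, pandas 2.3.3 and scipy 1.17.1 were used.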

Additional observations from a re-analysis of the deposited data

How the results depend on the processing

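Of 46 alternatives over the 4 counts of genes, 37 stayed within 1.5 times the main count. The number of FOX genes with a shared region within 10 kb, 3 in the main setting, became 0 among the 5000 highest scores of each list, 0 within 1 kb of the TSS, 10 within 50 kb, and 6 by distance to RefSeq start sites. From a single list it was between 4 and 5, the latter in replicate 1, where the summits of FOXI3 and FOXJ2 have no partner. The number of SOX genes within 10 kb, 1 in the main setting, became 3 within 50 kb, and was 1 without either replicate. FOX genes with a shared region at any distance, 14 in the main setting, became 7 among the 5000 highest scores and 5 when the region had to lie inside the gene's span. They numbered 15 to 16 from a single list. SOX genes at any distance, 3 in the main setting, were between 3 and 5 from a single list, the latter in replicate 2. The score limit, the distances and the single lists change the counts by their construction. The 4 alternatives by RefSeq start or span were not planned and were chosen after seeing the data. The others were planned, with earlier results of these data known. Annotation from replicate 2, annotation shared by both lists and the removal of satellites changed none of the 4 counts. No paired analysis was possible because these counts come from no test. Depth is unknown, so no limit could be set for genes without a summit.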
